A study of Mus musculus with 5 samples.

Results

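The let-7 family is a set of closely related microRNAs that repress a shared range of messenger RNAs. Its members here were the 9 mouse probes named mmu-let-7a, mmu-let-7b, mmu-let-7c, mmu-let-7d, mmu-let-7e, mmu-let-7f, mmu-let-7g, mmu-let-7i and mmu-miR-98 in the deposited expression matrix, written here without the species prefix. They were chosen by name and not by level, and only main strands were taken, so 9 of the 598 mouse microRNA probes belong to the family. All 9 were detected on all 5 arrays, against 123 of the 598 probes in all.

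MicroRNA was profiled in C57BL/6 mice at 2 to 3 months of age, with no genotype or treatment named in the labels. The groups were brown adipose tissue, inguinal and epididymal adipose tissue (both white fat), and the gastrocnemius and soleus muscles, each read on 1 array. How many animals gave each RNA is not stated. A level below is a normalized intensity, the background-subtracted signal in multiples of its array's median over detected probes, and no test could be run between single arrays. The error beside a log2 ratio is the standard error from the 4 spots of a probe, which covers spot noise only.

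A let-7 microRNA recognises target messages mainly through its seed, the bases just behind its 5′ end, so members with 1 seed can share targets. LIN28 proteins block the maturation of let-7 precursors in early embryonic and stem cells, and mature let-7 accumulates as tissues differentiate. In mice, the LIN28 and let-7 pathway acts on insulin and growth-factor signalling, with known effects on glucose handling in muscle and fat.

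The mature sequences are shown because they bear on how far the probes can tell the members apart. All 9 members matched a RefSeq entry (coordinates on GRCm38.p6), all have 22 bases, and no 2 are identical. Each is written 5′ to 3′ with the seed, bases 2 to 8, in capitals.
let-7a: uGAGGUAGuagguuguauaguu
let-7b: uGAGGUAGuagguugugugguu
let-7c: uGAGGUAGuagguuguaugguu
let-7d: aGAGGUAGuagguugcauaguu
let-7e: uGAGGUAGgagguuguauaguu
let-7f: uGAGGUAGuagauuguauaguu
let-7g: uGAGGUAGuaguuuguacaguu
let-7i: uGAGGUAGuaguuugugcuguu
miR-98: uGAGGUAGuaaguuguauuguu

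All 9 carry the seed GAGGUAG, which 11 of the 1679 mouse mature sequences in the RefSeq table hold at these bases. The other carriers are miR-1961 and let-7k. Counting from 1 at the 5′ end, let-7c differs from let-7a by A19G alone, let-7e by U9G alone and let-7f by G12A alone. Members at 2 changes are let-7b with A17G and A19G, let-7d with U1A and U16C, let-7g with G12U and U18C, and miR-98 with G11A and A19U. The member farthest from let-7a is let-7i, with G12U, A17G, U18C and A19U. Probes for sequences this close may capture one another's target, so the separate values of the members are uncertain, and the share of such signal was not tested. Levels are therefore compared between tissues within a member. Ratios between 2 members appear below only as changes between tissues, and they carry this uncertainty.

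The members come from 12 precursors. In the RefSeq annotation those of let-7d, let-7f-1 and let-7a-1 lie together on the minus strand of chromosome 13, between chr13:48536012-48536114 and chr13:48538179-48538272. The let-7c-2 and let-7b precursors, chr15:85706603-85706697 and chr15:85707319-85707403, lie within the bounds of the long noncoding RNA gene Lncppara. The let-7e precursor, chr17:17830352-17830444, lies within the bounds of Spaca6, and let-7g, chr9:106178840-106178927, within those of Wdr82. The let-7f-2 and miR-98 precursors, chrX:151912346-151912428 and chrX:151913214-151913321, lie within Huwe1, and let-7a-2, chr9:41536716-41536811, within Mir100hg. The remaining precursors are let-7c-1, chr16:77599657-77599750, and let-7i, chr10:122985640-122985724, with no gene other than the microRNA around them in this table. These are gene bounds only, and strand, exons and introns of the host genes were not considered. The array reads mature strands, so it cannot say which precursor gave let-7a, let-7c or let-7f.

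Marker microRNAs were set against the labelled tissues. Summed levels of 4 muscle microRNAs were 31.5 in gastrocnemius and 33.5 in soleus, against 6.36 in brown, 0.483 in inguinal and 0.357 in epididymal fat. Muscle microRNAs were thus present on the brown fat array. The 4 brown adipocyte markers summed to 21.4 in brown fat, 4.54 and 7.25 in inguinal and epididymal fat, and 16.8 and 14.2 in gastrocnemius and soleus. Most of each sum was miR-378, at 15.99 in brown, 2.83 in inguinal and 4.82 in epididymal fat, 14.61 in gastrocnemius and 12.99 in soleus. These sums thus say little about the other brown adipocyte markers in muscle. The 5 leukocyte markers summed to 22.3 on the inguinal array and to 2.94 to 10.5 on the others, and all 4 epithelial markers were detected on the epididymal array only. Other marker sums were lowest on the inguinal array, as were 6 members: 6.30 against 9.20 to 13.2 for 2 endothelial, 4.004 against 5.49 to 8.31 for 2 red cell and 6.36 against 9.30 to 10.8 for 4 stromal microRNAs. The stromal sum is mostly miR-143, at 4.94 in inguinal fat. miR-143 and miR-145 were lowest there, but miR-214 was lowest in brown fat, at 0.212 against 0.520 in inguinal fat. The inguinal array also had the lowest spike-in signal, 627 units over 5 controls against 755 to 1219. The part of these in the let-7 values was not tested, and in whole tissue fewer cells of a type and less RNA per cell cannot be told apart.

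Most members of the family varied little between these tissues compared with most detected microRNAs, while let-7b, let-7c and let-7e lay near the middle. The ratio of the highest to the lowest tissue had a median of 1.61-fold over the 9 members and 2.30-fold over the other 114 microRNAs detected on all arrays. The members' own ratios ran from 1.31-fold for let-7i to 2.35-fold for let-7e. Only 2 of the 123 microRNAs had a smaller range than let-7i and 6 a smaller one than let-7d. By contrast, 49 had a smaller range than let-7c, 56 a smaller one than let-7b and 69 a smaller one than let-7e. Of the 90 ratios between tissues (9 members in 10 pairs), 5 passed 2-fold, or 5.56%, against 24.8% of the 1140 ratios of the other 114. These are descriptions of 5 arrays, with no test.

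**Figure D1:**
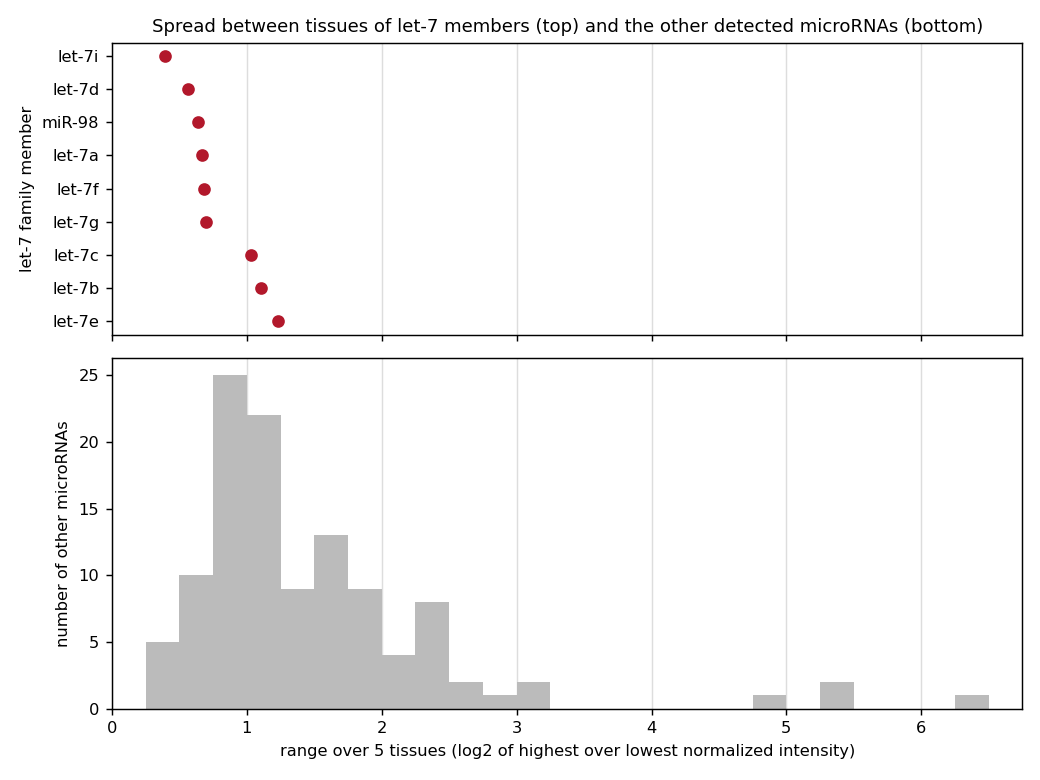
Range over the 5 tissues, as log2 of the highest over the lowest normalized intensity, for each let-7 member (red points, top) and as a histogram of the other 114 microRNAs detected on all arrays (grey, bottom). Of the members, let-7b, let-7c and let-7e lie past 1.00 (2-fold) and the other 6 lie at 0.40 to 0.70.

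The members with the lowest ranges were let-7i, let-7d, miR-98, let-7a, let-7f and let-7g. let-7i was at 1.58 in brown, 1.52 in inguinal and 1.97 in epididymal fat, 2.00 in gastrocnemius and 1.93 in soleus. The brown and inguinal arrays lay below the other 3, although in gastrocnemius 1 of the 4 spots read 1.07, below every spot of the other arrays. let-7d, from the chromosome 13 cluster, was at 3.59, 2.55, 3.51, 3.78 and 3.19 in the same order of tissues. Its inguinal value was the lowest, and the spots of neighbouring tissues in its order overlapped at every step.

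let-7a, the reference sequence above, read 10.5 in brown, 7.33 in inguinal and 11.7 in epididymal fat, and 10.3 and 9.02 in gastrocnemius and soleus. Its 4 inguinal spots, 7.18 to 7.74, lay below every spot of the other arrays, and the remaining neighbours overlapped. let-7f, encoded beside it on chromosome 13, read 9.79, 7.98, 12.8, 11.3 and 10.9. Its spots separated epididymal at the top and inguinal at the bottom from the rest.

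let-7g, from a precursor of its own on chromosome 9, read 4.12 in brown, 2.54 in inguinal and 3.77 in epididymal fat, 2.86 in gastrocnemius and 3.01 in soleus. Brown and epididymal fat overlapped in their spots, and gastrocnemius overlapped both soleus and inguinal fat. miR-98, which is encoded in Huwe1 with let-7f-2, read 124 to 184 units over background. Its levels were 0.413, 0.410, 0.378, 0.352 and 0.265, and spots overlapped between all neighbours in its order. The low soleus value was thus not separated from gastrocnemius by its spots (log2 ratio -0.41 ± 0.22).

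The other 3 members had wider ranges. let-7b, encoded with let-7c-2 on chromosome 15, read 15.8 in brown, 10.7 in inguinal and 16.8 in epididymal fat, 8.70 in gastrocnemius and 7.82 in soleus. Brown and epididymal fat stood above the other arrays with no overlap of spots, and both muscles were lowest. let-7c read 15.2, 9.24, 18.8, 13.3 and 10.4 in the same order. Its epididymal array was highest, with spots that overlapped brown fat, and its inguinal and soleus arrays were lowest and overlapped each other. let-7e read 1.81, 1.70, 3.35, 1.43 and 1.47. Its 4 epididymal spots, 2.98 to 3.76, lay above every spot of the other 4 arrays, whose spots overlapped in order.

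**Figure D2:**
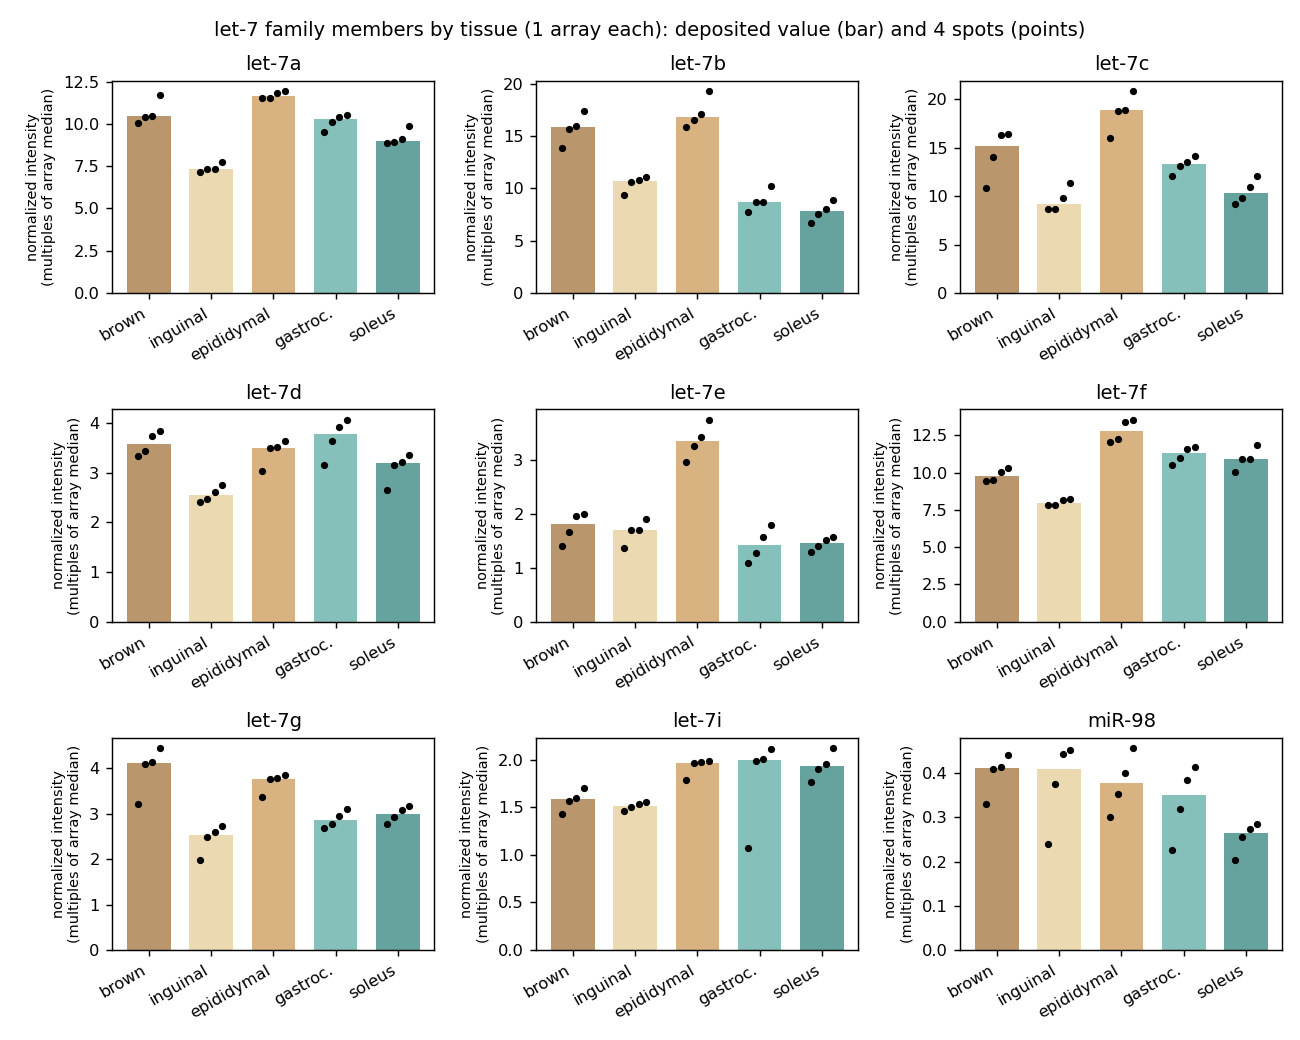
Normalized intensity (multiples of the array median, linear axes from 0) of each let-7 member in the 5 tissues, 1 array each. Bars are the deposited values and points the 4 spots of the probe. The epididymal bar of let-7e, at 3.35, stands clear of the other 4 at 1.43 to 1.81, while let-7i lies between 1.52 and 2.00 in all tissues.

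Between the members, 5 were highest in epididymal fat (let-7a, let-7b, let-7c, let-7e and let-7f), 2 in brown fat (let-7g and miR-98) and 2 in gastrocnemius (let-7d and let-7i). The inguinal array was lowest for 6 of the 9, soleus for let-7b and miR-98, and gastrocnemius for let-7e. The inguinal array was also lowest for 47 of the other 114 microRNAs (41.2%), and the epididymal array highest for 37 (32.5%). Averaged over members, the level relative to each member's own mean was 0.13 in brown, -0.25 in inguinal and 0.34 in epididymal fat, -0.04 in gastrocnemius and -0.19 in soleus, in log2 units. The medians of the other 114 were 0.11, -0.21, 0.17, -0.08 and -0.02. The scale chosen for each array enters these values directly: other scalings moved single arrays by -0.29 to 0.58, the largest being the spike-in scale on the inguinal array.

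The comparison of the white depots, inguinal fat under the skin against epididymal fat beside the testis, set the family farthest from equality at the deposited scale. The members' median log2 ratio was -0.65, against -0.40 for the 124 other microRNAs detected on both arrays, and 8 of 9 members were lower in inguinal fat. Relative to the other microRNAs the family was thus 0.25 lower, but with quantile normalization, with or without another background correction, this difference was of the other sign (at most 0.02). let-7c alone passed 2-fold, at 2.04-fold lower, where 11.6% of all microRNAs considered were lower by that rule. let-7e was just short of the threshold at 1.97-fold, let-7f was 1.61-fold, let-7a 1.59-fold and let-7b 1.57-fold lower, and miR-98 alone read higher, by 0.12 ± 0.25 on the log2 scale. The let-7c ratio stayed past 2-fold in 1 of 8 other scalings and summaries of spots.

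Brown fat, which burns fuel for heat, was compared with both white depots. No member was 2-fold apart from both, where 12.1% of microRNAs were. let-7d, let-7g and miR-98 read higher in brown fat than in either depot, and none read lower than in both, but the miR-98 ratios were no larger than 0.13 ± 0.16. For let-7g the brown array exceeded inguinal by 0.70 ± 0.14 but epididymal by only 0.13 ± 0.11. For let-7d it exceeded inguinal by 0.49 ± 0.06 and epididymal by 0.03 ± 0.08, inside the spot error. For the other 6 members brown fat lay between the white depots, as with let-7e, which in epididymal fat was 0.89 ± 0.14 above brown. The members' median of 0.18 became negative with 2 of 8 other settings, down to -0.52 with spike-in scaling, which also turned the means of let-7d (-0.43), let-7g (-0.28) and miR-98 (-0.63).

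The muscles differed least. Soleus, which holds more slow fibres than gastrocnemius, was within 1.33-fold of gastrocnemius for all 9 members, and no member was called, where 5.11% of microRNAs were. The members' median log2 ratio was -0.15, against -0.02 for the other microRNAs, with 7 of 9 members lower in soleus. A median nearer to equality was that of muscle against white fat, at -0.08. With no scaling between arrays the median of soleus against gastrocnemius was 0.04. With the 75th percentile of detected microRNAs it was -0.27, farther from equality than inguinal against epididymal fat at -0.11. The lowest was miR-98 at -0.41 ± 0.22, followed by let-7c at -0.36 ± 0.10 and let-7d at -0.24 ± 0.11. let-7e, let-7f, let-7g and let-7i lay within 0.07 of equality, inside or near their spot error.

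Muscle against fat set members apart from one another. No member was 2-fold apart in all 6 pairs of arrays, where 12.6% of microRNAs were. let-7b, let-7e and miR-98 read lower in both muscles than in all 3 fats, while the means over pairs of let-7d, let-7f and let-7i were 0.13, 0.15 and 0.22 toward muscle. These directions depend on the scale: with spike-in scaling they became -0.30, -0.28 and -0.20, with the means of all 9 members below 0, while the 75th percentile of all mouse microRNAs turned let-7d (-0.07) and let-7f (-0.05). For let-7b the mean over the 6 pairs was -0.78 and the pair nearest to equality, gastrocnemius against inguinal fat, was -0.30 ± 0.10. For let-7e the mean was -0.59, with the nearest pair, soleus against inguinal fat, at -0.21 ± 0.12. For miR-98 the mean was -0.39, with the nearest pair, gastrocnemius against epididymal fat, at -0.10 ± 0.23. Scaling to the 75th percentile of detected microRNAs moved gastrocnemius by 0.16 and brown fat by -0.20. The deposited log2 ratios of gastrocnemius over brown fat were -0.34 for let-7e and -0.23 for miR-98. The place of these 2 members below all 3 fats thus depends on the scale too. Against white fat alone no member was called either, where 19.5% of microRNAs were, and the family median of -0.08 turned positive with 3 of 8 other settings. Spike-in scaling called let-7b and let-7e lower in muscle than in white fat, and leaving out the inguinal array called let-7e alone.

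Brown fat against muscle uses arrays of the comparison above, so its values are not separate evidence. let-7b in brown fat was 1.82-fold higher than in gastrocnemius and 2.02-fold higher than in soleus, short of the rule in 1 of the 2 pairs. No member was called, where 23.2% of microRNAs were. let-7g was 1.44-fold and 1.37-fold higher in brown fat, and let-7c 1.14-fold and 1.46-fold. let-7f and let-7i read lower in brown fat than in either muscle, let-7i by 0.34 ± 0.24 against gastrocnemius and by 0.29 ± 0.08 against soleus.

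**Figure D3:**
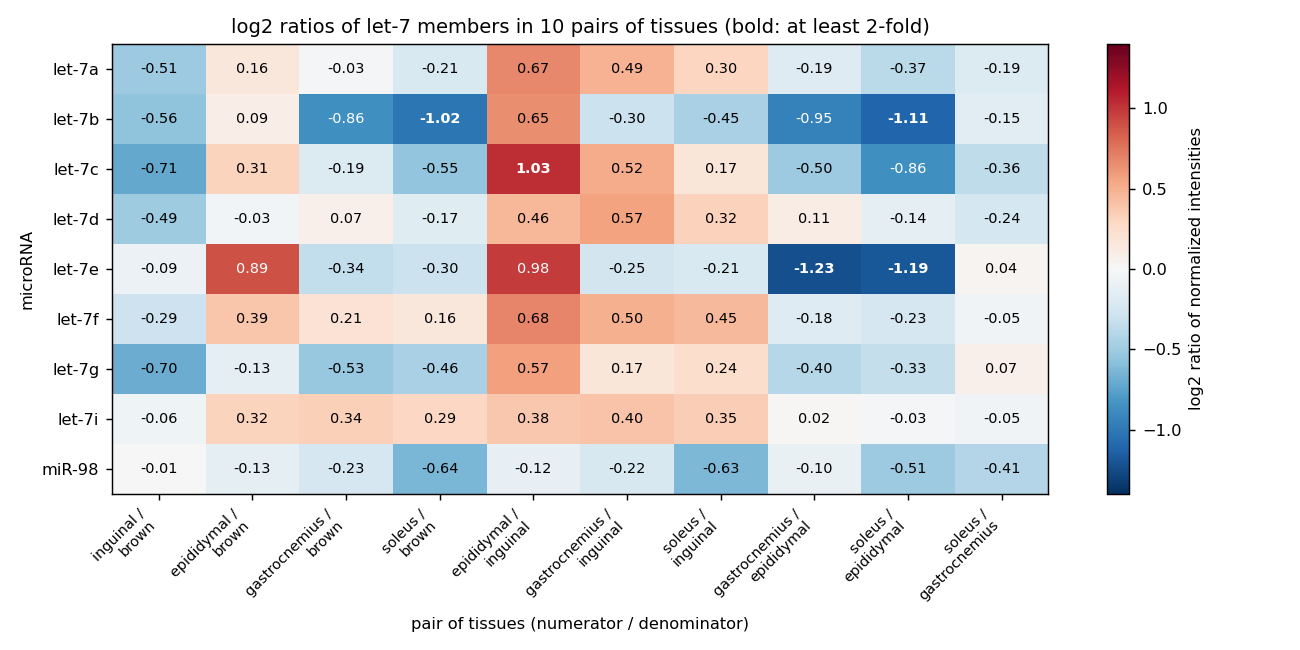
The log2 ratio of normalized intensities of each let-7 member (rows) in the 10 pairs of tissues (columns, first named over second), red where the first is higher and blue where it is lower. The 5 ratios in bold pass 2-fold: they belong to let-7b, let-7c and let-7e, and 4 of them involve the epididymal array.

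By single pairs of tissues, the calls were 4 lower and 1 higher. let-7e was lower than in epididymal fat by 2.35-fold in gastrocnemius (spot error 0.18 log2) and by 2.28-fold in soleus (0.10), where 17.4% and 21.9% of microRNAs were lower by 2-fold. let-7b was lower in soleus by 2.15-fold against epididymal fat (spot error 0.10 log2) and by 2.02-fold against brown fat (0.11), where 21.9% and 16.2% of microRNAs were. The let-7c ratio of epididymal over inguinal fat was the fifth. Over 8 other scalings and summaries the let-7e ratio in gastrocnemius kept its direction, ranged from 1.73-fold to 3.35-fold and passed 2-fold in 5. The other 4 ratios also kept their direction, and passed 2-fold in 4 (let-7e in soleus), 3 and 2 (let-7b) and 1 (let-7c) of the 8.

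A ratio of 2 members on the same array does not depend on a scale factor for that array. Compared between arrays, it describes how unequally the probes of 2 members read, with 1 array per tissue. Shared capture between close probes may enter it and was not tested. Of the 36 pairs of members, 11 had a ratio that differed at least 2-fold between some pair of tissues. Of those 11, 9 held let-7b or let-7e, the members with the widest ranges (2.15-fold and 2.35-fold). The share for pairs of other microRNAs was not computed, so this count is not a result about the family. The largest was let-7d over let-7e, which was 2.53-fold greater in gastrocnemius than in epididymal fat (1.34 ± 0.20 in log2). let-7b over let-7i was 2.47-fold greater in brown fat than in soleus (1.30 ± 0.13), and let-7b over let-7f 2.26-fold (1.17 ± 0.12). The median over the 36 pairs was 1.78-fold, and the pairs and tissues were picked by their values, so these are descriptions.

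The microRNAs whose profile over the 5 arrays was most like the family's were named by the root mean square (RMS) difference of log2 profiles, each centred on its own mean. They were miR-145, at 0.08, miR-28 (0.08), miR-151-5p (0.09), miR-186 (0.12) and miR-195 (0.13). The median over the 114 other microRNAs was 0.47, and the members themselves lay at 0.10 for let-7a to 0.30 for let-7e. miR-145, a microRNA of smooth muscle and stroma, read 0.756 in brown, 0.545 in inguinal and 0.923 in epididymal fat, 0.657 in gastrocnemius and 0.661 in soleus, the order of tissues seen in the family's mean but for the muscles. After quantile normalization, with either background correction, 1 of these 5 was still among the 5 nearest, miR-186.

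Some let-7 precursors are transcribed with members of the miR-99/100 and miR-125 families, and 8 such neighbours were on the array. Near let-7e, the mature sequences of miR-99b, let-7e and miR-125a-5p lie within 647 bases, chr17:17830194-17830840 on the plus strand. They are shown since they are encoded together but share no seed, as the capitals mark.
miR-99b: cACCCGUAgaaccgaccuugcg
let-7e: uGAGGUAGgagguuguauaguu
miR-125a-5p: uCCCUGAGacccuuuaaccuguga

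Of the 114 other microRNAs, miR-99b had the profile nearest to that of let-7e, with an RMS difference of 0.03, and the next, miR-10b, lay at 0.19. The value of 0.03 is smaller than the spot error of any ratio between tissues of either microRNA. The lowest such errors were 0.095 for let-7e and 0.082 for miR-99b, so the closeness is finer than the spots resolve. miR-99b read 0.626 in brown, 0.572 in inguinal and 1.17 in epididymal fat, 0.500 in gastrocnemius and 0.531 in soleus, or 204 to 464 units over background. As with let-7e, the epididymal array stood above all others, 2.34-fold over gastrocnemius (spot error 0.11 log2) and 2.20-fold over soleus (0.09). miR-125a-5p, the third of that cluster, read 3.998, 2.55, 4.52, 3.09 and 3.49, and its RMS difference from let-7e was 0.33. Its epididymal value was highest too, but within 1.13-fold of brown fat. A factor per array or a higher floor cannot take miR-99b from first place. Of the 3 other settings, the mean of log2 spots kept it first (RMS 0.04), quantile normalization put it at place 13 (RMS 0.28) and normexp with quantile normalization at place 9 (RMS 0.23).

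The other clusters did not give such close pairs. miR-99a, encoded with let-7c-1, lay at 0.43 from let-7c, and was 0.72 ± 0.14 higher in soleus than in brown fat, where let-7c was 0.55 ± 0.16 lower. miR-100, encoded in Mir100hg with let-7a-2, lay at 0.33 from let-7a and was highest in soleus, at 1.81 against 1.01 to 1.61 elsewhere. miR-125b-5p, whose precursor miR-125b-1 lies within the bounds of the same gene, lay at 0.23 from let-7a and was also highest in soleus, at 8.94. Any other precursor of miR-125b-5p was not considered. Both let-7a and let-7c also have a second precursor elsewhere, and what each precursor contributes was not tested. In the inguinal against epididymal comparison 2 of the 6 neighbours considered, miR-99a and miR-99b, were at least 2-fold lower, where 11.6% of microRNAs were. None was called in the other 5 comparisons, where 5.11% to 23.2% of microRNAs were. miR-125a-3p and miR-125b-3p were below the floor of 50 units on all arrays, and miR-125b* was above it in epididymal fat only.

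**Figure D4:**
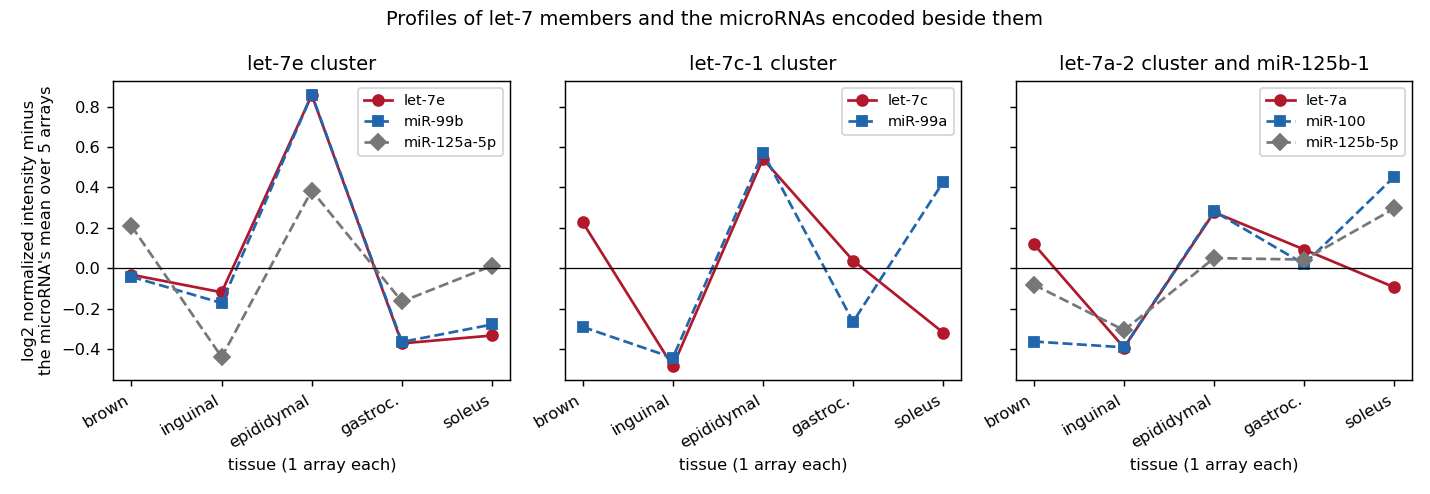
Centred log2 profiles over the 5 tissues (1 array each) of let-7e, let-7c and let-7a (red) with the microRNAs encoded near one of their precursors (blue and grey). The let-7e and miR-99b lines lie nearly on each other, with an RMS difference of 0.03, while miR-99a and miR-100 part from let-7c and let-7a in brown fat and soleus.

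The opposite strands of the let-7 precursors, which are usually degraded when the main strand is kept, were mostly not detected. Of all 598 mouse probes, 123 were detected on all 5 arrays and 207 on at least 1. Low detection was thus not particular to these strands. Of 7 star-strand probes, let-7d* alone was detected on all arrays. It read 0.261 in brown, 0.170 in inguinal and 0.331 in epididymal fat, 0.351 in gastrocnemius and 0.241 in soleus, or 71.5 to 143 units. The highest and lowest tissues were those of let-7d itself, gastrocnemius and inguinal fat, apart by 2.06-fold for let-7d* (1.04 ± 0.12 in log2) and 1.48-fold for let-7d. The top place was not settled by the spots. Gastrocnemius exceeded epididymal fat by 0.08 ± 0.18 in log2 for let-7d* and brown fat by 0.07 ± 0.10 for let-7d. let-7b* passed the floor in brown (83 units) and epididymal fat (70.5 units) and lay at 48 to 48.5 units on the other arrays, just below it. Brown and epididymal fat were also the highest arrays for let-7b. The probes for let-7f*, let-7c-1*, let-7g*, let-7i* and let-7a*/let-7c-2* stayed below the floor on all 5 arrays, with a highest value of 47.5 units in brown fat for the last.

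Members with more similar sequences were not clearly more alike in their tissue profiles. Over the 36 pairs of members the RMS difference had a median of 0.31 and ran from 0.10 for let-7a with let-7d to 0.52 for let-7b with let-7i. The 14 pairs that differ at 1 or 2 bases had a median of 0.30, and the 22 pairs that differ at 3 or more had 0.33, with wide overlap. let-7f and let-7i differ at 4 bases and lay at 0.11, whereas let-7a and let-7e differ at 1 base and lay at 0.38. The 5 pairs with precursors in 1 cluster had a median of 0.15, against 0.32 for the other 31, but let-7b with let-7c (0.30) and let-7f with miR-98 (0.39) were not among the close ones. Of these 5, the 3 closest pairs all come from let-7a, let-7d and let-7f, which share the chromosome 13 cluster, and pairs that share a member are not independent.

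**Figure D5:**
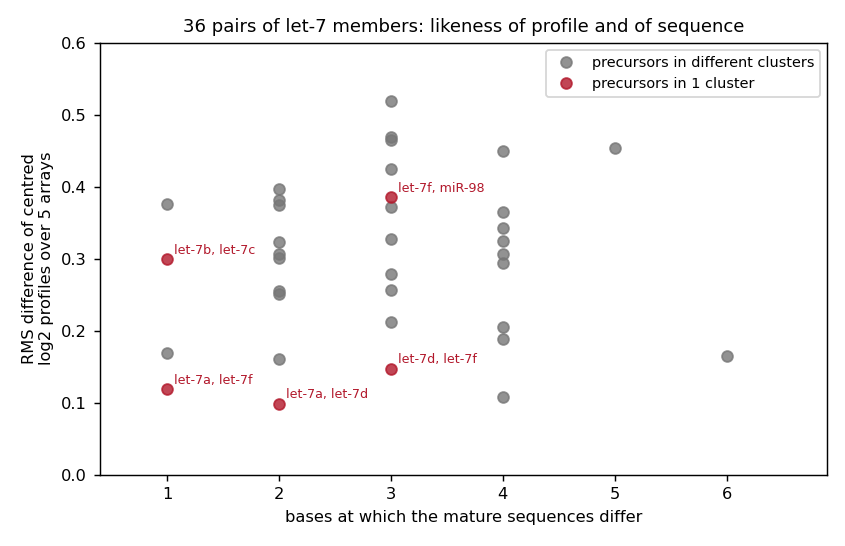
RMS difference of centred log2 profiles over 5 arrays against the number of bases at which the mature sequences differ, for the 36 pairs of let-7 members; red points have precursors in 1 cluster. Pairs at 1 base run from 0.12 to 0.38 and pairs at 4 bases from 0.11 to 0.45, so the columns overlap.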

How the data were processed

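MicroRNA was measured on 1-colour miRCURY LNA arrays, 1 per tissue, with 4 spots per probe. Per the file headers, each spot's intensity was deposited before and after background subtraction, the median of the spots was taken, and that value was divided by the median of the array's microRNAs exceeding 50 on all arrays, which makes the normalized intensity a ratio. The authors' deposited ratio table of array pairs, lists of changed probes and correlation table were not used in the results. The scanner software is not given in the sources used here.

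Deposited normalized values were compared as log2 ratios in 6 comparisons and 10 pairs of tissues with Python 3.11.15 (numpy 2.4.6, pandas 2.3.3). A probe was detected at 50 background-subtracted units, and called when at least 2-fold apart in the same direction in every pair of a comparison; values under the floor took the array's lowest detected value where that was higher. Background shares are over all mouse probes detected on at least 1 side. All 9 members passed the floor on all arrays. Arrays give no depth, so their number limits precision; the spot SD of members had a median of 0.12 log2. Calling was tested on simulated data. Alternatives included other scalings, normexp (limma 3.58.1, R 4.3.3, offset 50), spot means, a floor of 100 and a fold of 1.5. Named were all 9 members, their star strands, 8 neighbours and the 5 microRNAs nearest to the family profile; microRNAs nearest to single members were named after their values were seen. Members and lists were chosen with earlier results of these data known.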

Additional observations from a re-analysis of the deposited data

How the results depend on the processing

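No paired analysis was possible because there was only 1 array for a tissue. In inguinal against epididymal fat the 1 member called became 0 with no scaling, with either 75th percentile scaling, with quantile normalization, with normexp and quantile normalization and with spike-in scaling, and 5 (let-7a, let-7b, let-7c, let-7e and let-7f, all lower) at 1.5-fold. With the mean of log2 spots it stayed at 1, but let-7e in place of let-7c. In brown fat against muscle 0 became 1 (let-7b) with the 75th percentile of all mouse microRNAs and at 1.5-fold. In muscle against white fat 0 became 2 (let-7b and let-7e, lower) with spike-in scaling, and 1 (let-7e) without the inguinal array. Of the 5 calls over single pairs of tissues, 1 was left with no scaling, 3 with a median that leaves out the members, and 0 with the 75th percentile of detected microRNAs, quantile normalization or normexp and quantile normalization. The number was 13 with spike-in scaling (1 higher, 12 lower) and 17 at 1.5-fold. Of the 5 microRNAs nearest to the family profile, 1 was shared with quantile normalization and 1 with normexp and quantile normalization. In 15 of 48 values the family median moved by more than the spot SD of the comparison's mean log2 ratio, as a median over members. Relative to the other microRNAs a factor per array cancels; with quantile normalization, alone or after normexp, this difference went to 0.02 and 0.0018 in inguinal against epididymal fat (from -0.25) and to -0.03 and -0.02 in muscle against fat (from -0.19). The setting without the inguinal array, the place of miR-99b, the settings for the 5 called ratios and the family median relative to others were added after seeing the data. The cause of these changes was not tested. With 1 array per tissue, differences between animals cannot be told apart from differences between tissues. The spot SD of miR-98, at 124 to 184 units, was 0.18 to 0.43 log2, against a median of 0.12 over members and arrays.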
